A study of Homo sapiens with 6 samples.

Results

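Core components and feedback targets of the canonical Wnt pathway, 10 genes in all, were followed in SW480 cells, a human colorectal cancer cell line, before and after KIAA1199 was switched on. Of the 26445 probe sets on the arrays, which carry Ensembl gene identifiers as names, the 10 chosen were those whose identifiers had been assigned to *CTNNB1*, *APC*, *AXIN2*, *LGR5*, *RNF43*, *ZNRF3*, *NKD1*, *TCF7*, *LEF1* and *ASCL2*, and all 10 were present. Both groups were SW480 Clone 13, a single clone that carries a tetracycline repressor and a doxycycline-inducible *KIAA1199* construct, kept under G418 (0.4 mg/ml) and blasticidin S (7 µg/ml). In the doxycycline group (n = 3) the cells had received 50 ng/ml doxycycline for 48 h according to the labels, whereas the uninduced group (n = 3) had not been induced. The study's methods describe 3 independent experiments, each with 1 array per group, and give a range of doxycycline doses that begins at the labeled one. They cite earlier work in which such doses did not alter transcript levels on microarrays. Doxycycline-treated cells without the construct are not among these arrays, so doxycycline and KIAA1199 cannot be told apart as the source of a difference. The arrays measured whole cultures, and a change in every cell cannot be told apart from a larger change in some of them.

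Canonical Wnt signaling turns on the fate of CTNNB1 (beta-catenin). A cytoplasmic complex built on the scaffolds APC and AXIN marks it for degradation, and Wnt ligands at the cell surface stop this, so that CTNNB1 reaches the nucleus and activates transcription together with TCF and LEF proteins. The activated genes include the pathway's own brakes, and their transcripts are commonly read as a measure of pathway output in intestinal epithelium. In SW480 cells a mutation cuts APC short, and the pathway is active without added ligand.

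The values were log2 expression levels from Affymetrix GeneChip Human Exon 1.0 ST arrays, which carry probes to the individual exons of a gene. All 6 arrays shared a median level of 5.66. Differences are given as doxycycline minus uninduced on the log2 scale. A gene was counted as changed at the limits of the study, which ask for 1.2-fold or more, up or down, together with an unadjusted p under 0.025, using limma with the experiment as a block. At these limits 5.83% of all probe sets were called, 2.90% raised and 2.94% lowered. None (0 of 26445) had a Benjamini-Hochberg adjusted p under 0.05 in limma or in the methods' t-test, while 3248 had an unadjusted p under 0.05 in limma. A call at the limits is therefore a weak one. The levels of *KIAA1199* and of epithelial marker genes were not analysed here, because their identifiers could not be named.

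With KIAA1199 induced, the mean differences of the Wnt pathway genes were small, from -0.04 to 0.32, and none had an adjusted p under 0.05 in limma. None was lowered past the limits, beside 2.94% of all probe sets, and in 10 genes such a count says little. *RNF43*, which encodes a membrane ubiquitin ligase that removes Wnt receptors, was the 1 gene of the 10 that rose past the limits, by 0.32 or 1.25-fold. *NKD1*, *LEF1*, *AXIN2* and *TCF7* were higher by 0.13 to 0.23 without passing them, and *CTNNB1* itself differed by 0.02. One raised gene of 10 stands beside 2.90% of all probe sets raised at the same limits, a count too small to set the genes apart. At an unadjusted p under 0.05 in limma, 2 of the 10 were called, *RNF43* and *NKD1*, beside 12.3% of all probe sets in either direction and 6.36% of them higher. The methods' t-test called 0 of the 10 at the limits, beside 2.18% of all probe sets, and 3 of them, *RNF43*, *NKD1* and *TCF7*, were higher at an unadjusted p under 0.05, beside 5.63%.

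The direction was more even than the sizes. The mean difference was above 0 for 9 of the 10 genes, against 50.5% of all probe sets, and the exception was *LGR5*. The 5 genes *AXIN2*, *RNF43*, *NKD1*, *TCF7* and *LEF1* were higher with doxycycline in all 3 experiments, as were 18.9% of all probe sets. No gene of the 10 was lower in all 3 experiments, whereas 17.6% of all probe sets were. In experiment 1 the difference was above 0 for 10 of the 10 genes, in experiment 2 for 6 and in experiment 3 for 8, while over all probe sets the shares were 49.1%, 51.0% and 51.2%. The median difference over the 10 genes was 0.12, and that over all probe sets was 0.0017. By experiment the median of the 10 genes was 0.20, 0.063 and 0.15.

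**Figure D1:**
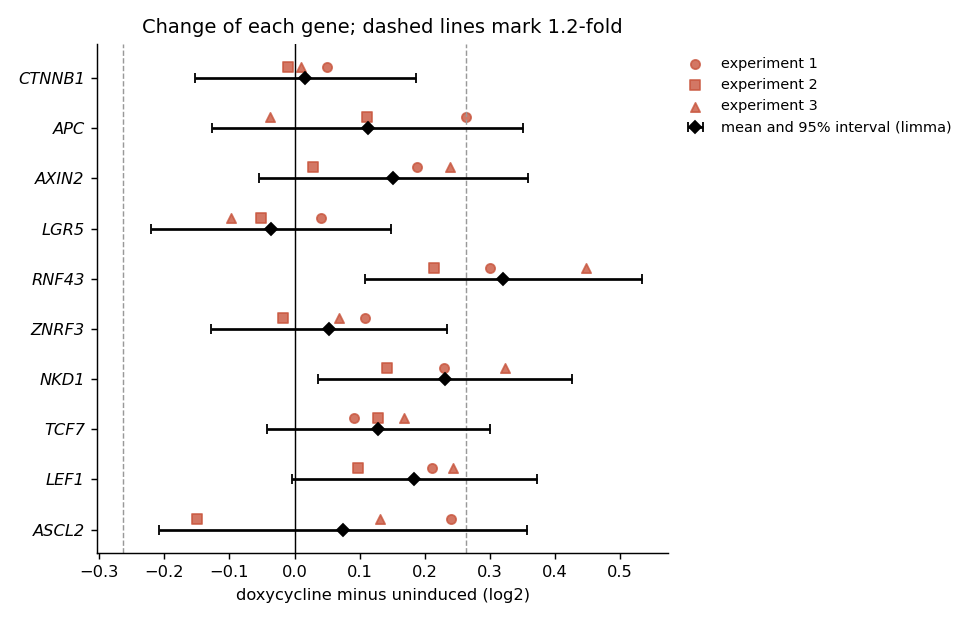
Difference between doxycycline and uninduced cells on the log2 scale (horizontal axis) for each of the 10 genes (rows). Diamonds and bars are the mean and its 95% interval from limma with the experiment as a block, colored symbols are the 3 experiments, and dashed lines mark a 1.2-fold change. Only the intervals of *RNF43* and *NKD1* lie wholly above 0, and no interval reaches a 1.2-fold fall.

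The intervals show what size of change in array signal could have been missed, which need not equal the change in RNA. For all 10 genes the 95% interval from limma stayed above a 1.2-fold fall, a difference of -0.26. The lowest bound was the -0.22 of *LGR5*. For *CTNNB1*, *LGR5* and *ZNRF3* the interval also stayed below a 1.2-fold rise, whereas for the other 7 it reached past it. The level of *LGR5* was low, with 15.9% of probe sets lower, and its distance from the background signal is not known. Its interval therefore bounds the change in signal and not that in RNA. These intervals apply to each gene by itself. With the interval of the methods' t-test, which takes the spread of each gene alone, *ASCL2* reached down to -0.43. The other 9 still stayed above a 1.2-fold fall, but the lower bound of *APC*, -0.2628, lay almost at it.

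Among the components of the cytoplasmic complex, *CTNNB1* (ENSG00000168036_at), which encodes the transcriptional effector of the pathway, gave the steadiest values. Its levels were 10.74, 10.78 and 10.75 in uninduced cells of experiments 1, 2 and 3, and 10.79, 10.77 and 10.76 in doxycycline cells. The groups overlapped, and all 6 arrays lay within a narrow band. The means were 10.76 ± 0.021 (SD, n = 3) and 10.77 ± 0.015 (SD, n = 3). The difference was 0.02 (standard error 0.061, adjusted p = 0.94 from limma), with a 95% interval of 0.90-fold to 1.14-fold. The 3 differences were 0.05, -0.01 and 0.01, so the transcript moved in neither direction in a repeatable way.

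*APC* (ENSG00000134982_at) encodes the scaffold that is truncated in these cells. Its levels were 6.73, 6.99 and 7.08 without doxycycline and 6.99, 7.10 and 7.04 with it. The uninduced array of experiment 1 stood below the other 5, and the groups overlapped. The differences were 0.26, 0.11 and -0.04, with a mean of 0.11 (standard error 0.086, adjusted p = 0.65 from limma). Most of this mean came from experiment 1, and without that experiment it was 0.04.

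*AXIN2* (ENSG00000168646_at) encodes a scaffold of the same complex and is itself a Wnt target, a classical feedback gene. The levels were 9.28, 9.26 and 9.30 in uninduced cells and 9.47, 9.29 and 9.54 in doxycycline cells. The uninduced arrays lay close together, while the doxycycline array of experiment 2 remained among them, 0.012 below the highest uninduced array. The means were 9.28 ± 0.021 (SD, n = 3) and 9.43 ± 0.13 (SD, n = 3). The differences of 0.19, 0.03 and 0.24 gave a mean of 0.15, a 1.11-fold difference (standard error 0.075, adjusted p = 0.50 from limma), which did not pass the limits.

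**Figure D2:**
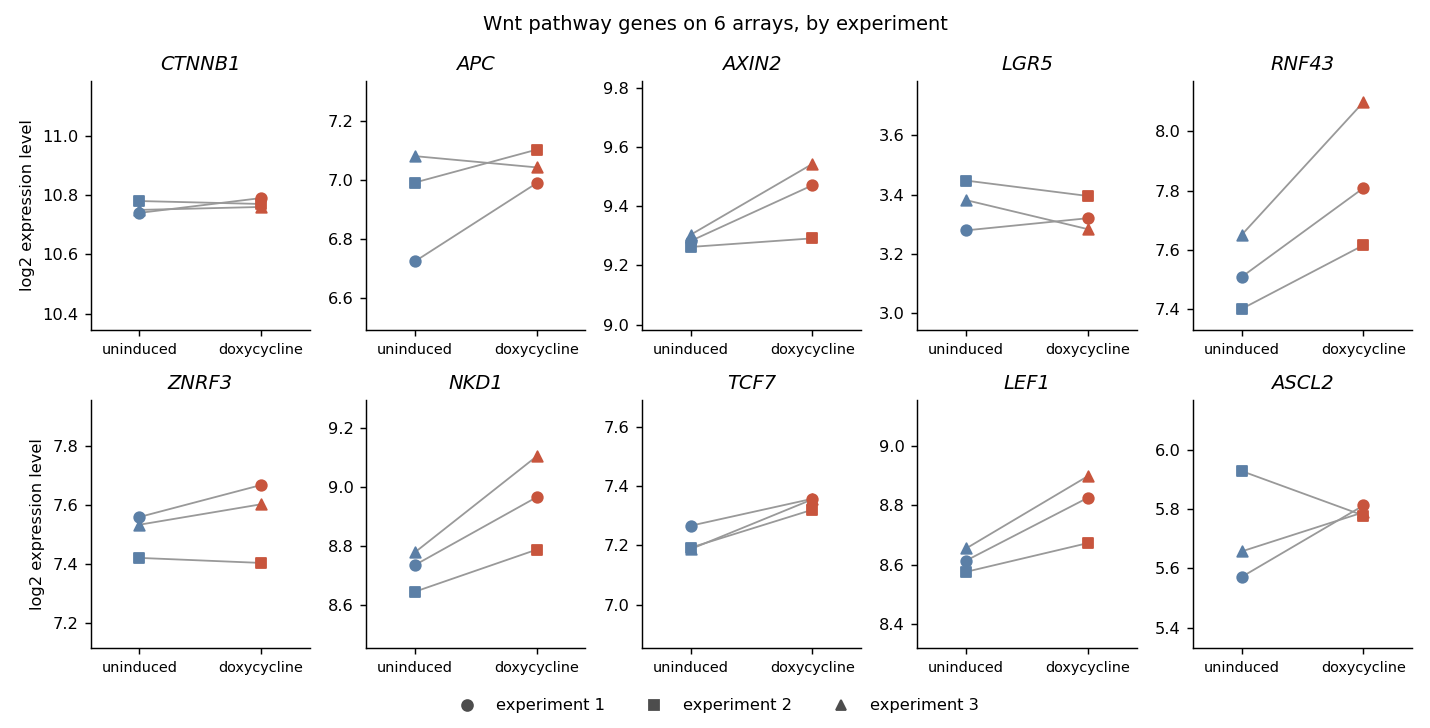
Log2 expression level (vertical axis, the same span in each panel) of the 10 genes in uninduced (blue) and doxycycline (red) cells. Symbols mark the 3 experiments and lines join the arrays of an experiment. All 3 lines climb for *AXIN2*, *RNF43*, *NKD1*, *TCF7* and *LEF1*, whereas those of *CTNNB1* are nearly flat.

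At the cell surface, *RNF43* (ENSG00000108375_at) and *ZNRF3* (ENSG00000183579_at) encode related ubiquitin ligases that remove Frizzled receptors and so restrain Wnt signaling. *LGR5* (ENSG00000139292_at) encodes a receptor for R-spondins, which counteract these ligases. *RNF43* levels were 7.51, 7.40 and 7.65 in uninduced cells and 7.81, 7.62 and 8.10 in doxycycline cells. Within each experiment the doxycycline array was higher, but the groups overlapped by 0.035, because the uninduced array of experiment 3 exceeded the doxycycline array of experiment 2. The means were 7.52 ± 0.13 (SD, n = 3) and 7.84 ± 0.24 (SD, n = 3). The differences of 0.30, 0.22 and 0.45 gave a mean of 0.32 (standard error 0.077, 95% interval 1.08-fold to 1.45-fold).

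The rise of *RNF43* passed the limits in limma with the experiment as a block (unadjusted p = 0.014, adjusted p = 0.35). Of all probe sets, 89.8% had a smaller absolute difference. The call ended without the block (unadjusted p = 0.059) and in the methods' t-test (unadjusted p = 0.042). It also ended when any 1 of the experiments was left out, with differences between 0.26 and 0.37 and unadjusted p-values between 0.030 and 0.057. Without the block and with 1 array left out, the difference ran from 0.19 without doxycycline 3 (unadjusted p = 0.15), which is under a 1.2-fold change, to 0.43 without doxycycline 2 (unadjusted p = 0.019).

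The levels of *ZNRF3* were 7.56, 7.42 and 7.53 without doxycycline and 7.67, 7.40 and 7.60 with it. Both arrays of experiment 2 lay below the others, and the groups overlapped. The differences were 0.11, -0.02 and 0.07, with a mean of 0.05 (standard error 0.065, adjusted p = 0.78 from limma). In each experiment this was less than the difference of *RNF43*. Whether the 2 ligases differed in their response was not tested.

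*LGR5* marks stem cells of the intestinal crypt. Its levels were 3.28, 3.45 and 3.38 in uninduced cells and 3.32, 3.40 and 3.28 in doxycycline cells. These levels are low for the array, with 15.9% of probe sets having a lower mean, and the SD of the 3 differences was 0.24 in the median over the 25% of probe sets with the lowest levels, compared with 0.10 over the 25% with the highest. The differences of *LGR5* were 0.04, -0.05 and -0.10, with a mean of -0.04 (standard error 0.066, adjusted p = 0.86 from limma). The background signal of the arrays was not analysed here, so it is not known how far these levels lie above it.

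*NKD1* (ENSG00000140807_at) encodes a protein that binds Dishevelled and antagonizes Wnt signaling, and it is also a transcriptional target of the pathway. Its levels were 8.74, 8.65 and 8.78 in uninduced cells and 8.97, 8.79 and 9.10 in doxycycline cells. All 3 doxycycline arrays lay above all 3 uninduced arrays, although the gap between the groups was only 0.009. The means were 8.72 ± 0.068 (SD, n = 3) and 8.95 ± 0.16 (SD, n = 3). The differences of 0.23, 0.14 and 0.32 gave a mean of 0.23, or 1.17-fold, with an interval from 1.03-fold to 1.34-fold. *NKD1* did not pass the limits, as its fold change was under 1.2 and its unadjusted p was 0.030 (adjusted p = 0.37 from limma). In the methods' t-test its unadjusted p was 0.048.

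Of the nuclear factors, *TCF7* (ENSG00000081059_at) and *LEF1* (ENSG00000138795_at) encode DNA-binding partners of CTNNB1, and both genes are known Wnt targets. *TCF7* levels were 7.27, 7.19 and 7.19 without doxycycline and 7.36, 7.32 and 7.36 with it. The groups did not overlap, with a gap of 0.054, the widest among the 10 genes. The differences of 0.09, 0.13 and 0.17 were small but even, with a mean of 0.13 or 1.09-fold (standard error 0.062, adjusted p = 0.49 from limma). Because these 3 values lay close together, *TCF7* had the lowest unadjusted p of the 10 genes in the methods' t-test, 0.028, which like its fold change did not pass the limits.

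*LEF1* levels were 8.61, 8.58 and 8.66 in uninduced cells and 8.83, 8.67 and 8.90 in doxycycline cells. Again the groups did not overlap, with a gap of 0.018. The means were 8.62 ± 0.040 (SD, n = 3) and 8.80 ± 0.12 (SD, n = 3). The differences of 0.21, 0.10 and 0.24 gave a mean of 0.18, or 1.14-fold (standard error 0.068, unadjusted p = 0.053, adjusted p = 0.41 from limma). *NKD1*, *TCF7* and *LEF1* were the 3 genes of the 10 whose groups did not overlap with doxycycline higher, as in 8.64% of all probe sets.

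*ASCL2* (ENSG00000183734_at) encodes a transcription factor of intestinal stem cells that is also a Wnt target. Its levels were 5.57, 5.93 and 5.66 in uninduced cells and 5.81, 5.78 and 5.79 in doxycycline cells. The doxycycline arrays were nearly equal and lay inside the range of the uninduced ones. The differences of 0.24, -0.15 and 0.13 had the widest spread of the 10 genes, an SD of 0.20, and their mean was 0.07 (standard error 0.10, adjusted p = 0.81 from limma). Without experiment 1 the mean was -0.0090.

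The promoters of a gene that rose, of one that was higher in all 3 experiments and of *CTNNB1* are shown to compare the letters that TCF and LEF proteins recognize. They are the 250 bases before the start site in RefSeq's promoters for GRCh38.p14, 5′ to 3′ on the strand of the gene, and 5 of the 10 genes had an entry: *CTNNB1*, *APC*, *RNF43*, *TCF7* and *LEF1*. Capitals mark the core letters CTTTG, or CAAAG where they lie on the other strand. The sequences are from chr17:58417535-58417784 on the minus strand for *RNF43*, chr4:108166302-108166551 on the minus strand for *LEF1*, and chr3:41199255-41199504 on the plus strand for *CTNNB1*.
RNF43: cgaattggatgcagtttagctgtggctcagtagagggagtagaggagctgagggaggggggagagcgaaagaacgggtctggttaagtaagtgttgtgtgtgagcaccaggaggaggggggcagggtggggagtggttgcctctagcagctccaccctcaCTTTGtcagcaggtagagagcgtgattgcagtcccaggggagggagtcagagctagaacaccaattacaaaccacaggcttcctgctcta
LEF1: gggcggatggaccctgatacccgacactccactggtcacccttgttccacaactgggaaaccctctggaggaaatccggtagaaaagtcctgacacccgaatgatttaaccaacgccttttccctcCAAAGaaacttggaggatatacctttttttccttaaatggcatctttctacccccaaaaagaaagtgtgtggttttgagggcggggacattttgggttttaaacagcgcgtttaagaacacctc
CTNNB1: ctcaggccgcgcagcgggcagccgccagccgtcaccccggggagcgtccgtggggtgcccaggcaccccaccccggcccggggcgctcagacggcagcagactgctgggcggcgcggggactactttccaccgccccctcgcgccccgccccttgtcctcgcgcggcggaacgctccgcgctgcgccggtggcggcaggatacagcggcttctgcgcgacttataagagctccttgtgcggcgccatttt

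The longer motif letters, CTTTGAT or CTTTGAA on either strand, were in 0 of the 8 promoter entries of these 5 genes and in 5.94% of all 35116 entries of the same length. The core CTTTG, which both longer motifs contain, was in 4 of the 8 entries and in 42.1% of all entries. It began 90 bases before the start of *RNF43* shown above and 124 bases before that of *LEF1*, which lies 2631 bases inside the outermost start of the gene in RefSeq, whereas those of *RNF43* and *CTNNB1* are outermost starts, and the window of *CTNNB1* held none. Of the entries not shown, the other entry of *RNF43* held the core and neither entry of *APC* did. The entry of *TCF7* 15400 bases inside its outermost start held 2 cores, and its entry 7395 bases inside held 0. The search for the core was added after the longer motifs had given no match. These letters say nothing about binding in SW480 cells, and a link between them and the rise of a gene was not tested.

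Among the 10 genes, 4 ranked the 6 arrays in nearly the same order. In *AXIN2*, *RNF43*, *NKD1* and *LEF1* the lowest array was uninduced 2, followed by uninduced 1, and the highest was doxycycline 3, preceded by doxycycline 1. Uninduced 3 and doxycycline 2 lay between them, with uninduced 3 the lower in *NKD1* and *LEF1* and the higher in *AXIN2* and *RNF43*. This order was noticed in the values and was found in 1.99% of all probe sets, and in 5.90% of the 25% of them with the highest mean level, to which all 4 genes belong. Any probe set with this order is also higher with doxycycline in all 3 experiments. That alone held for 18.9% of all probe sets and 28.0% of the 25% with the highest level. The order is therefore not separate from the rise of these 4 genes. In the same 4 genes the difference between doxycycline and uninduced cells was largest in experiment 3 and smallest in experiment 2, as in 16.0% of all probe sets. Of all probe sets, 3.52% had this order and were also higher in all 3 experiments. These last shares were not counted for the 25% with the highest level. ENSG00000103888_at, the probe set with the largest rise on these arrays, had differences of 1.84, 1.60 and 2.05. In the study's own list of changed genes the largest rise was that of *KIAA1199*. Whether this probe set measures *KIAA1199* could not be checked here, because it could not be named. A link between its differences and those of the 4 genes was not tested.

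This order is also that of the arrays on the first principal component of all probe sets, which held 31.0% of the variance. The scores were -99.5 for uninduced 2, -97.6 for uninduced 1, 0.38 for uninduced 3, 25.5 for doxycycline 2, 29.7 for doxycycline 1 and 141.5 for doxycycline 3. *NKD1* and *LEF1* followed it exactly, and *AXIN2* and *RNF43* except for the middle pair. With the middle pair free, 1.99% of all probe sets had this order, and the share with the exact order was not counted. Every doxycycline array scored above every uninduced array, so the order on the component is not separate from the rise of these genes with doxycycline. How large a part of the component lies in the differences between the groups was not tested. The remaining 6 genes did not share this order, and in *CTNNB1*, *APC*, *LGR5* and *ASCL2* the lowest array was uninduced 1.

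**Figure D3:**
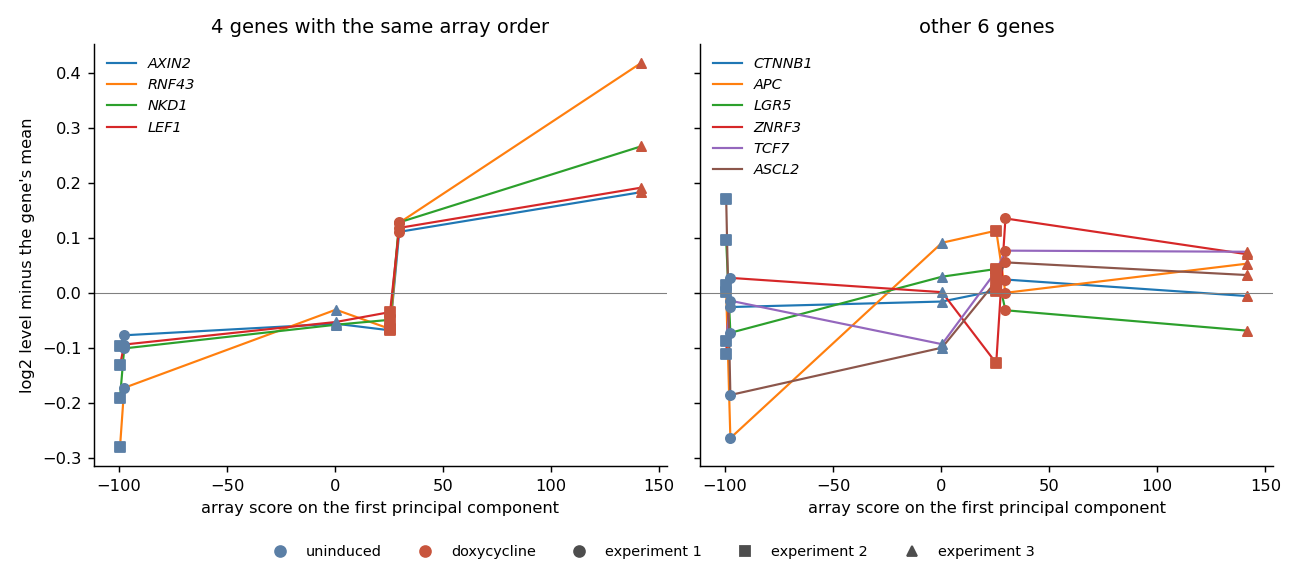
Level of each gene minus its mean over the 6 arrays (log2, vertical axis) against the score of each array on the first principal component of all probe sets (horizontal axis), for *AXIN2*, *RNF43*, *NKD1* and *LEF1* (left) and the other 6 genes (right). Blue and red symbols are uninduced and doxycycline arrays, symbol shapes are the experiments, and lines join the arrays of a gene. On the left the values climb from the arrays at -99.5 and -97.6 to the array at 141.5, and on the right no common course is seen.

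Most of the genes had levels in the upper part of the array's range, where replicate spread is lowest. When all probe sets were ranked by mean level, 7 of the 10 genes, *CTNNB1*, *AXIN2*, *RNF43*, *ZNRF3*, *NKD1*, *TCF7* and *LEF1*, were in the top 25%, *APC* and *ASCL2* in the next 25%, and *LGR5* in the bottom 25%. A level also depends on the probes of each gene and does not rank their amounts of RNA. In the top 25%, 28.0% of probe sets were higher in all 3 experiments, against 12.7% in the bottom 25%, and 4.93% against 2.62% were raised past the limits. When the course of the differences with level was removed from each experiment, the median over the 10 genes was 0.11 and the difference of *RNF43* was 0.31.

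**Figure D4:**
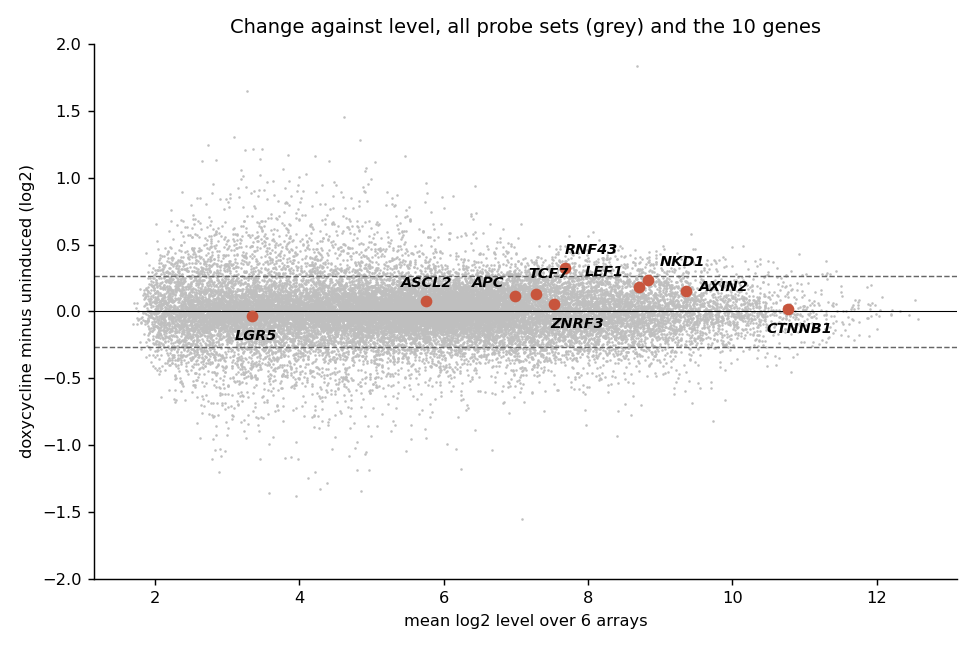
Difference between doxycycline and uninduced cells (log2, vertical axis) against mean level over the 6 arrays (log2, horizontal axis) for all 26445 probe sets (gray) and the 10 Wnt pathway genes (red, named). Dashed lines mark a 1.2-fold change in either direction. *RNF43* is the only one of the 10 beyond a dashed line, and it lies inside the cloud of all probe sets.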

How the data were processed

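The authors deposited 1 table of log2 levels for 6 arrays and 26445 probe sets, named by Ensembl gene identifiers. RMA is named in the submitters' processing notes, and after sorting, levels of equal rank lay within 0.024 of each other across arrays. The annotation version and genome build are not given in the sources used here. No further normalization was applied. The 3 arrays per group set the precision. Tests were 2-sided, by lmFit and eBayes of limma 3.58.1 in R 4.3.3, with the experiment as a block, since the study used a paired test. Adjusted p-values are Benjamini-Hochberg values over the whole table. Principal components used the 26444 probe sets that varied, each scaled to unit variance.

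The 10 genes and the lists were chosen with earlier results of these data known. All 10 are named. The rule for naming further Wnt pathway genes, cell type markers and genes with a similar course could not be applied, because the reference table pairs no Ensembl identifiers with symbols, and they were not analysed here. The alternatives were a fit without the block, the methods' t-test, changed variance priors, array weights, a filter on the lowest 25% of levels, other limits, removal of the level trend by lowess with a span of 0.3, and each experiment or array left out.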

Additional observations from a re-analysis of the deposited data

How the results depend on the processing

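The count of genes past the limits, 1 of 10, stayed at 1 with both other variance priors, with array weights, after the lowest 25% of levels had been removed, and with no fold change minimum. It was 0 with no replicate block, in the methods' t-test and at a fold change minimum of 1.5, and 2 at an unadjusted p under 0.05 with no fold change minimum. With the block it was 0 (lowest 0, highest 0) when any experiment was left out. With no replicate block and 1 array left out it was 0 to 2, the 2 being *RNF43* and *NKD1* without the doxycycline array of experiment 2. Over all probe sets the count of 1543 became 577 in the methods' t-test, 238 at a fold change minimum of 1.5, 3248 at an unadjusted p under 0.05, 986 to 1344 with an experiment left out, and 696 to 1361 with no replicate block and an array left out (uninduced 1, 993, uninduced 2, 696, doxycycline 1, 997, and doxycycline 3, 770), compared with 1050 with no replicate block and all arrays. Without uninduced 3 the count was 1361 and without doxycycline 2 it was 1332, both above the 1050 with all arrays. Fewer arrays take part in each of these fits, whether the count fell or rose, and the cause was not tested. No gene of the 10 had an adjusted p under 0.05 (0) in limma with or without the block, with both other priors or in the methods' t-test.

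The median difference over the 10 genes was 0.085 to 0.16 with an experiment left out. *AXIN2*, *RNF43*, *NKD1*, *TCF7*, *LEF1* and *APC* kept their direction in all their alternatives, but with no replicate block and 1 array left out some moved by over 1.5 times: *APC* from 0.11 to 0.0088 without uninduced 1 and 0.19 without uninduced 3, *AXIN2* from 0.15 to 0.098 without doxycycline 3, and *RNF43* from 0.32 to 0.19 without doxycycline 3. With the block, *APC* was 0.04 without experiment 1 and 0.19 without experiment 3. *LGR5* turned from -0.04 to 0.0027 (range -0.08 to 0.0027) and *ZNRF3* from 0.05 to -0.0013 (range -0.0013 to 0.13) with no replicate block and 1 array left out, namely uninduced 2 for *LGR5* and doxycycline 1 for *ZNRF3*. *ASCL2* turned from 0.07 to -0.0090 without experiment 1 (range -0.0090 to 0.19), and *CTNNB1* became 0 there. Arrays of the same experiment deviated from their group means with an r of 0.039, 0.049 and 0.13 over all probe sets. Arrays of different experiments gave an r from -0.092 to 0.044. For each doxycycline array the uninduced array of its own experiment had the highest r, but all values were small. The pairing therefore rests on the methods rather than on these values. The settings planned for further Wnt pathway genes were not run.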
